A study of Homo sapiens with 3 samples.

Results

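Among BxPC-3 cells, a cell line derived from a human pancreatic ductal adenocarcinoma, a minority carried transcripts of differentiated squamous and secretory epithelium. These cells were chosen by a score, the summed UMIs (unique molecular identifiers, each marking 1 captured transcript) of SPRR2E, SPRR2F, LYNX1, LYPD2, TFF1, KRT4, CEACAM5 and PI3 per 10000 UMIs of the cell. The top 15% of all cells by this score, 846 of 5640, are called member cells here. They comprised 393 of 2409 parental cells, 247 of 1291 single-positive cells and 206 of 1940 double-positive cells. The score cuts through a continuous range, so the members are the upper end of a gradient and not a sorted type.

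The cells came from a study of cell-in-cell structures, in which a living cell lies inside another after entering it (entosis). BxPC-3 cells stably expressing EGFP or mCherry were mixed in equal numbers, held in suspension and sorted by flow cytometry. Double-positive cells showed both colours, single-positive cells showed either colour alone, and parental cells were the reference. The labels speak of expanded, trypsinised cells but give neither the time between sorting and capture nor the mix of colours in the single-positive library. Each group was 1 library of the 10x Chromium 5′ kit, version 2. No comparison between groups therefore has a replicate, and all libraries share 1 cell line. Sets of 3 values are given in the order parental, single-positive, double-positive.

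Stratified squamous epithelium matures from a basal layer, held to the matrix by integrins, into outer cells that build a cornified envelope of small proline-rich proteins crosslinked by transglutaminases. Secretory epithelium of the pancreas, stomach and airway makes mucins, trefoil factors and antimicrobial proteins. Pancreatic carcinomas are often described along an axis from a classical type, with trefoil and mucin genes, to a basal-like type with squamous features.

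The libraries held 51637677 to 65107147 UMIs, of which 97.7 to 97.97% fell in cells. Pairs of libraries shared 1, 6 and 1 cell barcodes, and no member barcode was shared. All 9 epithelial markers listed, KRT7 the most abundant, were detected in member and other cells of every library. The single-positive library stood apart in its shallow cells. Of its 251 cells with 6500 to 15000 UMIs, 113 were members (45.02%, exact Clopper-Pearson interval 38.8 to 51.4%). The shares at that depth were 14.6% of parental cells (11.3 to 18.5%) and 10.6% of double-positive cells (6.03 to 16.8%). All intervals are at 95% and cover counting error only.

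The shallow single-positive cells mostly held a few UMIs of the 8 genes each. A UMI of the 8 was found in 83.7% of them, with a median of 3, and in 33.8% of parental and 26.1% of double-positive cells of that depth. Their summed score was 2.95 per 10000 UMIs, beside 2.99 in the near-empty barcodes of the library (100 UMIs or fewer) and 2.64 over all its cells. Their median mitochondrial share was 3.34%, and 61.8% were called G2M. The part of free RNA in the choice of these cells was not tested.

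Gene groups outside the score separated the shallow single-positive members from the rest. Cornified envelope genes summed to 2473 CPM (UMIs per 1000000 UMIs) in them and 2255 CPM in other single-positive cells of that depth. Classical secretory genes stood at 457 and 438 CPM, and mesenchymal genes at 3567 and 3527 CPM. These pairs are nearly equal. In single-positive cells of 15000 UMIs or more, cornified envelope genes summed to 4560.2 CPM in members and 2053 CPM in other cells. Shallow parental members had them at 4805 CPM, against 2288 CPM. Judged by these lists, the name of a differentiated cell did not hold for the 113 shallow single-positive members, which were 45.7% of that library's members.

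**Figure D1:**
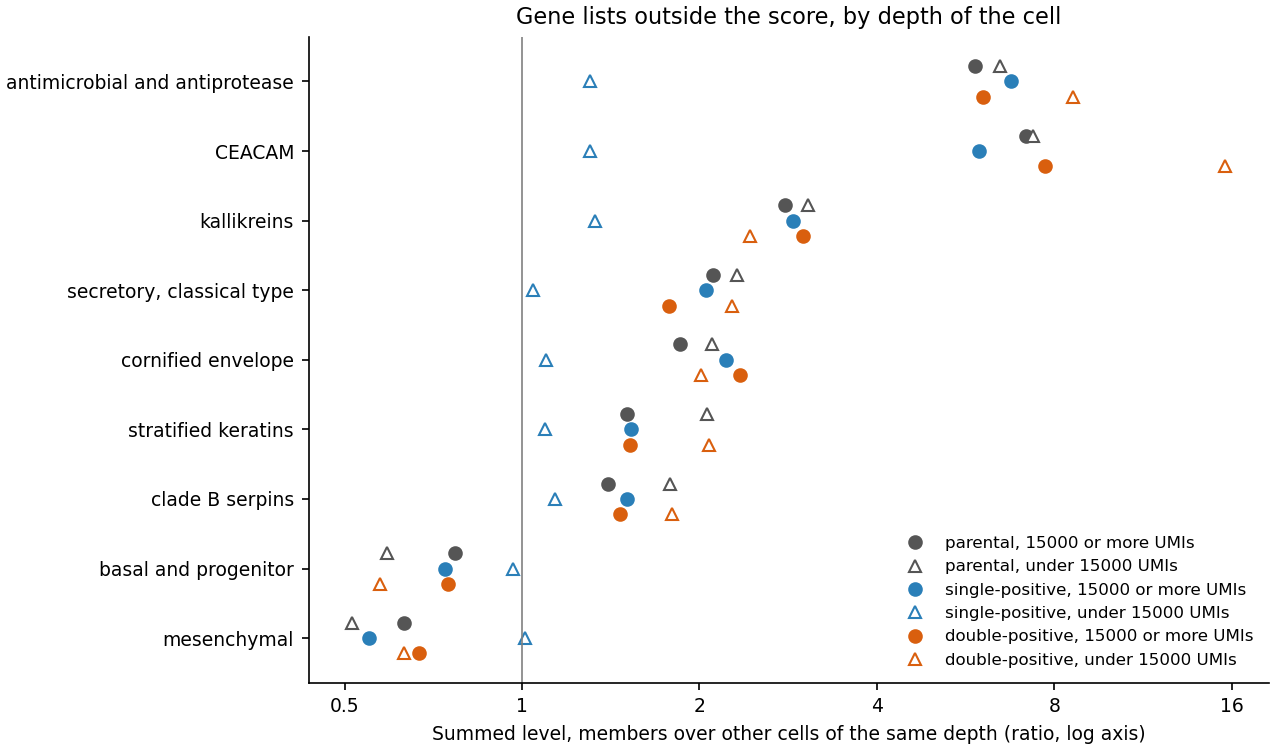
Ratio of the summed level of 9 gene lists in member cells over other cells of the same library and depth, on a log axis. Filled circles are cells of 15000 UMIs or more and open triangles are cells under 15000 UMIs. For shallow single-positive cells every list shown lies between 0.966 and 1.33.

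Member cells were 16.3% of parental cells (14.9 to 17.9%), 19.1% of single-positive cells (17.02 to 21.4%) and 10.6% of double-positive cells (9.28 to 12.1%). With every cell thinned to 6500 UMIs before scoring, the shares were 18.3, 17.3 and 9.33%. Among cells of 15000 UMIs or more, 336 of 2019 parental cells were members (16.6%, 15.04 to 18.3%). At that depth 134 of 1040 single-positive cells were members (12.9%, 10.9 to 15.1%) and 191 of 1798 double-positive cells (10.6%, 9.24 to 12.1%). The single-positive share was thus above the parental share over all cells and below it in deep cells, and the double-positive share was the lowest in these 3 settings. In deep cells the single-positive and double-positive intervals overlapped.

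At a score of 10 or more the shares were 7.47, 4.34 and 4.79%. At 30 or more they were 1.58, 1.47 and 1.55%, from 38, 19 and 30 cells, with intervals that overlapped. With 1 library a group, the sorted state and the library cannot be told apart.

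**Figure D2:**
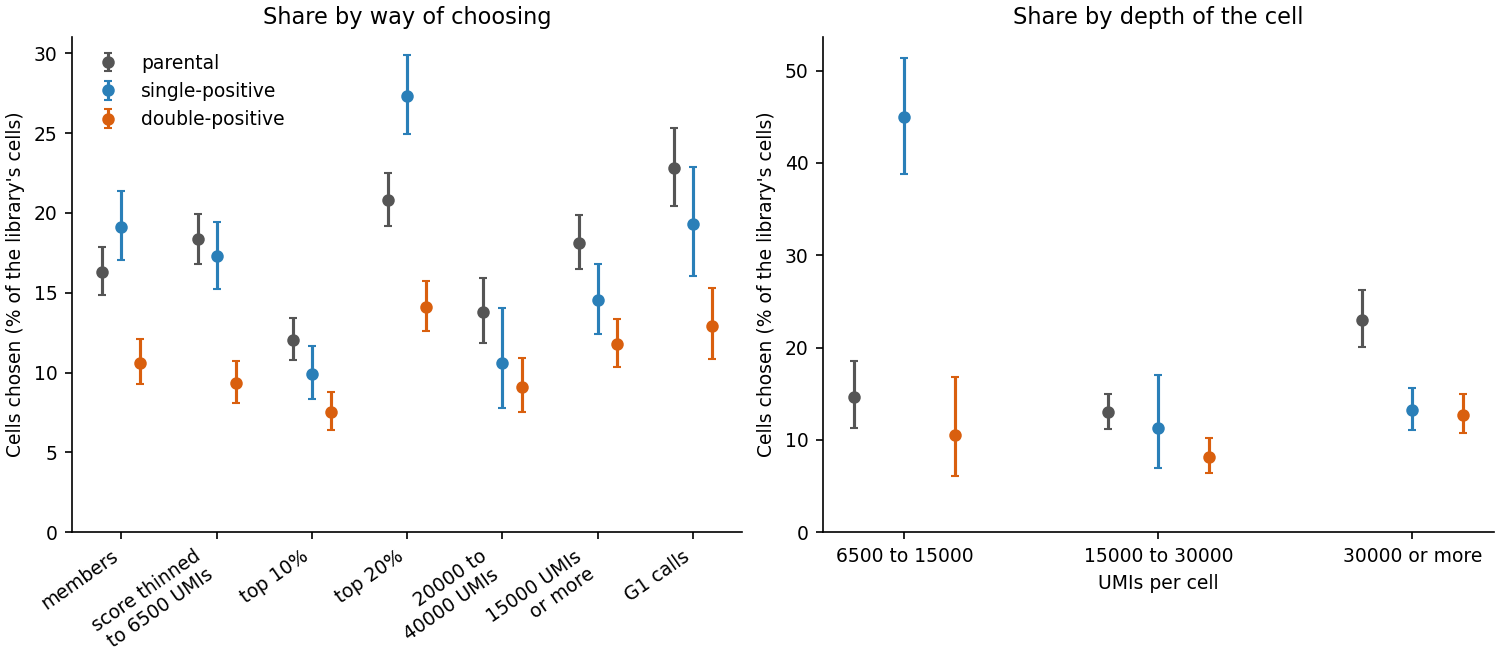
Share of each library's cells chosen, in percent with exact 95% intervals, under 7 ways of choosing (left) and by depth of the cell with the members as defined (right). The double-positive share was the lowest of the 3 under each way of choosing shown, and the single-positive share in cells of 6500 to 15000 UMIs, 45.02%, stands apart.

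No gap in the score marked the cut. The lowest member and the highest cell outside both scored 3.06. The 10th member inside the cut scored 3.11 and the 10th cell outside 3.03, and 73 members scored under 3.5 while 118 other cells scored 2.5 or more. The median member scored 7.54 and the highest 338, whereas 59.9% of other cells had no UMI of the 8 genes. A member carried a median of 23 UMIs of the score from a median of 4 genes. A single score gene was detected in 77 members (9.10%), and all 8 in 13.

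The 8 genes chose the members, so their levels are a description and carry no test. SPRR2E and SPRR2F, small proline-rich proteins of the cornified envelope, lie side by side on chromosome 1 (153093135 to 153106184 and 153112114 to 153113515, minus strand, GRCh38 with GENCODE 29). SPRR2E stood at 171, 198 and 301 CPM in members and 2.83, 1.41 and 3.13 CPM in other cells. SPRR2F stood at 37.2, 42.7 and 58.04 CPM in members and 0.443, 0.517 and 0.666 CPM in others. Few cells carried them: 32.03% of members had a UMI of SPRR2E, and 1 cell held 35.7 to 45.9% of a library's SPRR2F UMIs in members. Their transcripts match at 92.7% over 629 aligned bases, so the split of reads among the SPRR2 copies is uncertain.

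PI3 encodes elafin, a secreted elastase inhibitor (chromosome 20, 45174876 to 45176544, plus strand). It had 362, 407 and 611 CPM in members and 17.3, 17.8 and 13.9 CPM in other cells. It was the least exclusive of the 8, with 83.2% of its UMIs in members. LYPD2 was the most exclusive, with 97.7%. LYPD2 and LYNX1, both Ly6-domain proteins, lie close together on one chromosome arm. LYPD2 stood at 82.4, 29.6 and 39.2 CPM in members and 0.173, 0.3998 and 0.167 CPM in others. LYNX1 stood at 146, 90.4 and 62.7 CPM and 1.66, 2.33 and 0.611 CPM.

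TFF1, a trefoil peptide of gastric mucus (chromosome 21, 42362282 to 42366594, minus strand), had 213, 251 and 161 CPM in members and 4.60, 5.95 and 4.90 CPM in other cells. KRT4, a keratin of non-cornified stratified epithelium (chromosome 12, 52806549 to 52814551, minus strand), had 287, 291 and 172 CPM and 6.14, 5.24 and 3.13 CPM. CEACAM5, the carcinoembryonic antigen (chromosome 19, 41708585 to 41729798, plus strand), had 167, 152 and 269 CPM and 5.29, 7.24 and 7.27 CPM. Among members, SPRR2E, SPRR2F, PI3 and CEACAM5 were highest in the double-positive library, while LYNX1, TFF1 and KRT4 were lowest there.

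**Figure D3:**
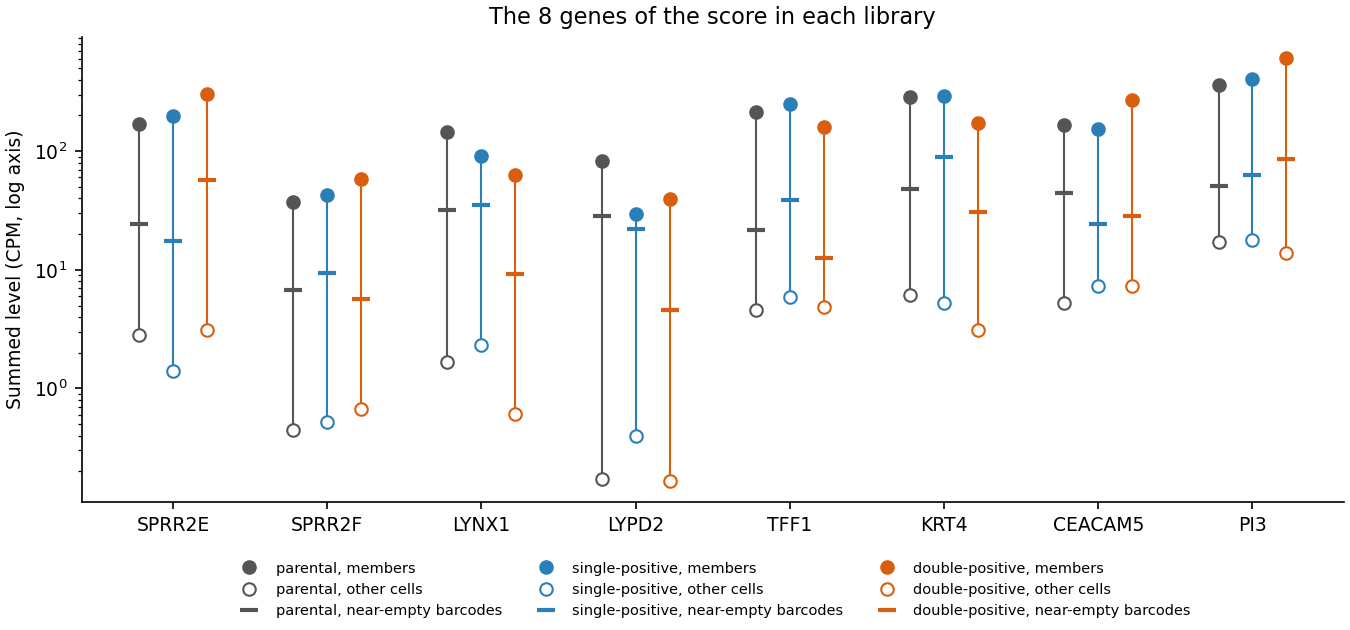
Summed level of the 8 score genes in CPM on a log axis, with member cells as filled circles, other cells as open circles and near-empty barcodes as short bars. For all 8 genes in each library the near-empty level lies between members and other cells. LYPD2 in single-positive members, 29.6 CPM, is close to its near-empty level of 22.2 CPM.

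The top 15% was also taken by 7 of the genes, leaving out each in turn. The 8 genes were put together as markers of the same cells, and the SPRR2 pair may share reads, so the level of the left-out gene is a description with no test. KRT4 stood at 237, 222 and 129 CPM in cells chosen without it and 18.03, 20.1 and 8.03 CPM in the rest. Over the 8 genes and 3 libraries the log2 ratio ran from 3.12 for PI3 in parental cells to 7.32 for LYPD2 in double-positive cells.

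The 8 genes varied together to different degrees. Over all cells of a library, thinned to 6500 UMIs, Pearson's r between the levels of SPRR2E, SPRR2F and PI3 had a median of 0.31, 0.28 and 0.42 and a lowest value of 0.21, 0.14 and 0.37. Between LYNX1, LYPD2, TFF1 and KRT4 the median was 0.34, 0.33 and 0.22 and the lowest 0.24, 0.16 and 0.07. Across these sets, over 12 pairs, the median was 0.06, 0.09 and 0.11 and the highest 0.20, 0.28 and 0.22. Medians were thus higher within the sets than across them. The ranges did not overlap in the parental library, where they lay close, but did in the single-positive library. In the double-positive library the range across the sets overlapped that of LYNX1, LYPD2, TFF1 and KRT4. CEACAM5 had a median of 0.34, 0.22 and 0.30 with the other 7. These values describe 2409, 1291 and 1940 cells that share a library and its free RNA, and the SPRR2 pair may also share reads.

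**Figure D4:**
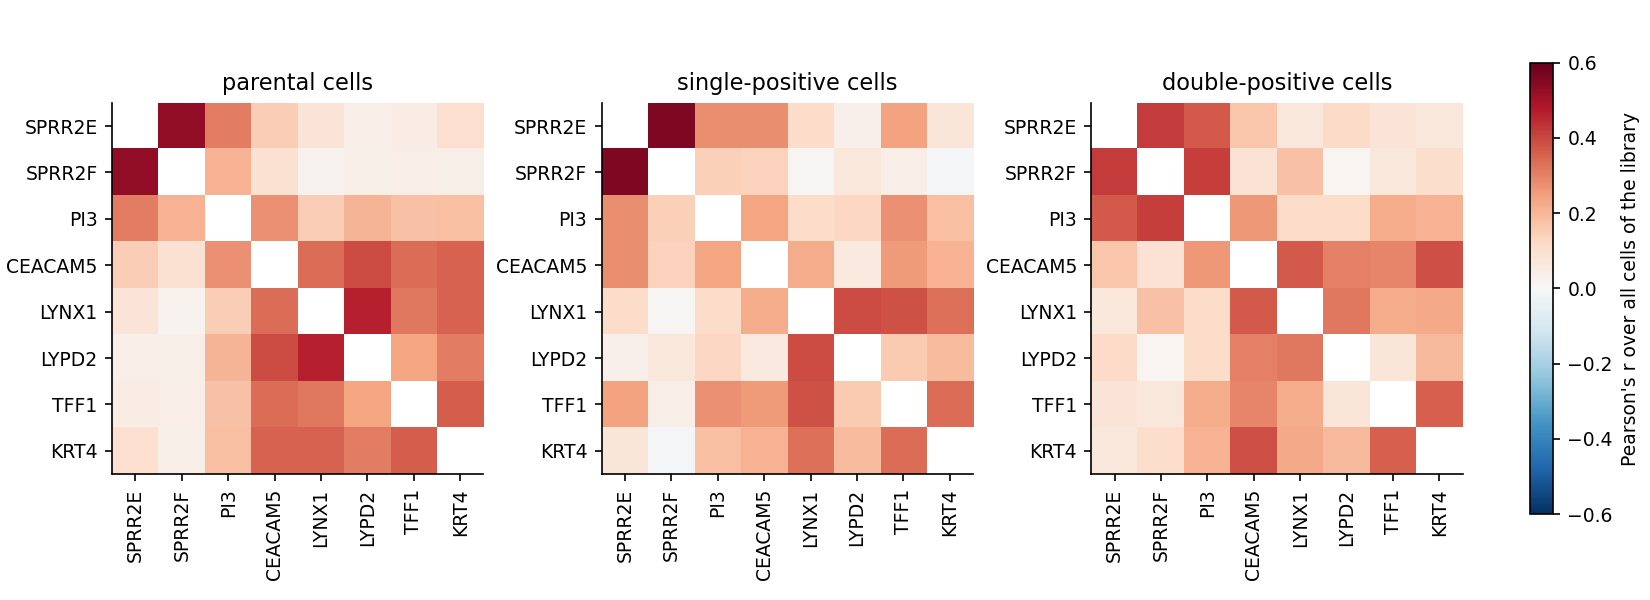
Pearson's r between the thinned levels of the 8 score genes over all cells of each library, with the colour scale from -0.6 to 0.6. Pairs across the SPRR2 and PI3 set and the KRT4 and LYNX1 set are the palest as a group, with highest values of 0.20, 0.28 and 0.22.

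Members were divided by whether SPRR2E, SPRR2F and PI3 or LYNX1, LYPD2, TFF1 and KRT4 held more of their score, a division made after the correlations were seen. The first group led in 348 members (41.1%), the second in 458 (54.1%), and 40 were equal. SPRR2- and PI3-led cells were 37.4, 41.7 and 47.6% of a library's members, and 36.6, 39.6 and 48.7% of those of 15000 UMIs or more. In the single-positive library they had a median of 16026 UMIs and 2.99% mitochondrial UMIs, beside 36937 and 1.65% in KRT4- and LYNX1-led members, and the part of depth in the division was not tested. The division was not exclusive: 62.1% of SPRR2- and PI3-led members had a UMI of the other group, as did 68.3% the other way.

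Of 7997 genes counted, 29 (0.363%) were at least 2-fold higher in SPRR2- and PI3-led members in each library, and 3 (0.0375%) at least 2-fold higher in KRT4- and LYNX1-led members, with no test. IL36G, an epidermal cytokine of the interleukin-1 family, had 25.4, 29.3 and 50.1 CPM in SPRR2- and PI3-led members and 1.23, 1.75 and 2.42 CPM in KRT4- and LYNX1-led members, with 65.96% of its UMIs in single-positive members from 1 cell. SAA1, an acute phase protein whose copy SAA2 may share its reads, had 572, 655 and 587 CPM and 118, 62.95 and 103 CPM. C15orf48, a mitochondrial protein of inflamed epithelium, had 1929, 1538 and 1777 CPM and 691, 418 and 710.0 CPM. The chemokines CXCL1 and CCL20 and the collagenase MMP1 were also among the 29. The 3 genes of the other direction were GKN1, a gastric mucosal protein, AOC1, a diamine oxidase, and LY6D, a Ly6-domain surface protein. LY6D had 277, 399.6 and 188 CPM in KRT4- and LYNX1-led members and 107, 119 and 51.00 CPM in SPRR2- and PI3-led members.

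For the comparison of members with all other cells, UMIs were summed over each class in each library, and the 6 sums were fitted with edgeR's quasi-likelihood test with library as a block. The 8 score genes were left out. Of 13902 genes tested, 1004 (7.22%) were called higher and 620 (4.46%) lower in members, at a Benjamini-Hochberg adjusted p under 0.05, at least 1.5-fold, and in the same direction in each library. That direction was taken with 0.5 UMI added to each sum, and in 4 of the genes called higher, TGM1 among them, CPM itself was not higher in members in every library. The median log2 fold change over all genes tested was 0.00270. The filter on low counts can be met by 1 class alone, so sparse genes could enter through the class where they were higher. With only cells of 15000 UMIs or more, chosen again, 995 genes were called higher and 641 lower, of which 936 and 541 were among those above. The p-values ask whether a difference repeats over 3 libraries of 1 line.

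Cornified envelope and late squamous genes outside the score were mostly higher in members. Of 52 listed genes in the files, 33 passed the filter on low counts. Of these 22 were called higher and 1 lower, beside 7.22% and 4.46% of all genes tested. Their median log2 fold change was 1.01. SPRR1A had 81.00, 98.5 and 94.3 CPM in members and 12.9, 10.6 and 11.5 CPM in other cells. Members lay far above other cells in each library, with a log2 fold change of 2.95 (edgeR adjusted p = 1.17e-28). SPRR3, another proline-rich envelope protein, had 49.04, 42.7 and 55.4 CPM and 6.08, 4.26 and 6.87 CPM. Involucrin (IVL), an early scaffold of the envelope, was sparse, with 4.65, 4.03 and 4.36 CPM and 0.847, 0.823 and 0.722 CPM (log2 fold change 2.44, edgeR adjusted p = 1.29e-11). Filaggrin (FLG), which bundles keratins in the outermost layers, had 4.23, 8.82 and 3.37 CPM and 0.808, 0.729 and 0.611 CPM. The gene of the list called lower was CLCA2, at 1.27, 2.14 and 1.83 CPM in members and 4.22, 5.17 and 5.66 CPM in others. The transglutaminase TGM1 was sparse, at 3.38, 1.76 and 1.97 CPM and 0.962, 1.01 and 1.998 CPM, with the double-positive classes almost level. Its log2 fold change of 0.96 lost the call in 6 of 17 alternatives and was lowest, at 0.17, without cells under 0.5% mitochondrial UMIs.

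The SPRR2 copies outside the score had the same direction. SPRR2A had 331, 394 and 665 CPM in members and 45.6, 27.9 and 50.2 CPM in other cells (log2 fold change 3.45, edgeR adjusted p = 2.44e-27). SPRR2D had 138, 211 and 300.3 CPM and 20.2, 13.8 and 25.9 CPM. In single-positive members 1 cell held 29.8% of SPRR2A and 36.2% of SPRR2D UMIs. SPRR2A and SPRR2F transcripts match at 93.3% of aligned bases, so the independence of these genes from the score is uncertain.

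Because several SPRR genes were called higher, the sequence before the start of 1 score gene and 1 gene outside the score is shown. The 200 bases before each RefSeq start (GRCh38.p14) are given 5′ to 3′, SPRR2F from chr1:153113517-153113716 on the minus strand and SPRR1A from chr1:152983881-152984080 on the plus strand. Capitals mark the TATA box letters, TATAAA, and the AP-1 type letters, TGANTCA, both searched on both strands and not overlapping each other here.
SPRR2F: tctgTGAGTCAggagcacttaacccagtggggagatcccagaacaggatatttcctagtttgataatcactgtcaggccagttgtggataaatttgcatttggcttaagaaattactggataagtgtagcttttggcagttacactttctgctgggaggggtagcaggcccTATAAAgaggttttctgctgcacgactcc
SPRR1A: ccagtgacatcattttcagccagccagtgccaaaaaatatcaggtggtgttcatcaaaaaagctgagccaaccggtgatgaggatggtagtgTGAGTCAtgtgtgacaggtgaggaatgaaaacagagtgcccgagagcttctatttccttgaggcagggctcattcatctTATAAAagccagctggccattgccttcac
The TATAAA begins 29 bases before the start in both, and the AP-1 type match begins 196 bases before it in SPRR2F and 108 bases before it in SPRR1A. Not every promoter searched held both motifs. Of 13 searched, 5 did, SPRR1A, SPRR2A, SPRR2F, SPRR2G and SPRR3. SPRR1B held no TATAAA, SPRR2B no TGANTCA, and KRT4 and CEACAM5 neither. Over 250 bases before the start, TGANTCA occurred in 6.57% of 35116 RefSeq promoters and TATAAA in 10.7%. TGANTCA occurred in 4.33% of the 9913 tested genes with an entry, in 8.01% of 637 called higher and in 8.73% of 424 called lower. TATAAA occurred in 5.61, 10.99 and 8.96% of the same sets. AGGAAG, letters of ETS type also searched, occurred in 27.9, 27.6 and 33.7%. A match of letters is a description, and binding was not measured.

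The S100 alarmins spread more between libraries. S100A8, a subunit of calprotectin, had 33.3, 15.2 and 63.2 CPM in members and 4.93, 2.30 and 2.66 CPM in other cells, and its log2 fold change of 3.42 became 2.75 without the double-positive library. In members 1 cell held 42.4% of the double-positive and 20.7% of the single-positive UMIs of S100A8. S100A7, psoriasin, had 5.50, 5.04 and 84.7 CPM and 0.520, 0.0235 and 0.222 CPM, with 64.8% of the double-positive member UMIs in 1 cell. Its log2 fold change of 6.77 became 4.18 without the double-positive and 8.46 without the parental library. S100A7 met the filter on low counts only with its member sums, so its call was partly set by the filter.

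Of 14 stratified keratins tested, 7 were called higher and 0 lower, beside 7.22% and 4.46% of all genes tested. Their median log2 fold change was 0.62. KRT13, the usual partner of KRT4, had 2061, 2083 and 1697 CPM in members and 657, 668 and 572 CPM in other cells (log2 fold change 1.61, edgeR adjusted p = 7.16e-26). KRT16, a wound keratin, had 13.6, 17.01 and 26.8 CPM and 3.46, 5.79 and 1.92 CPM, with 41.9% of the double-positive member UMIs in 1 cell. Its log2 fold change of 2.37 became 1.75 without that library. Of 4 simple keratins tested, KRT8 alone was called, higher, with a log2 fold change of 0.73.

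Secretory and classical-type genes were mostly higher too. Of 36 listed genes, 26 passed the filter on low counts, and 10 did not. Of the 26 tested, 22 were called higher and 1 lower, beside 7.22% and 4.46% of all genes tested. Their median log2 fold change was 2.34. Sparse genes among them, PIGR and MUC5AC included, met the filter through the member sums alone. Such genes could be tested only where members were high, which raises the count and the median. The trefoil peptide TFF2 had 19.5, 40.3 and 25.9 CPM in members and 3.37, 5.76 and 3.55 CPM in other cells. AGR2, a chaperone of mucin folding, had 332, 251 and 225 CPM and 80.3, 63.6 and 71.6 CPM (log2 fold change 1.89, edgeR adjusted p = 2.94e-25). PIGR, the receptor that carries immunoglobulins across epithelia, had 15.1, 14.5 and 15.5 CPM and 0.308, 0.188 and 0.241 CPM. Every member value of these genes lay above every value of other cells. The membrane mucin MUC1 had 51.8, 48.01 and 50.6 CPM and 4.56, 4.14 and 5.14 CPM. The gastric mucin MUC5AC was sparse, at 5.33, 3.53 and 6.18 CPM and 0.115, 0.0706 and 0.185 CPM. FOXA2, an endodermal transcription factor, was the gene called lower, at 7.19, 8.07 and 5.48 CPM in members and 15.3, 16.3 and 11.5 CPM in others. SCGB1A1, an airway secretory protein outside the list, had 58.8, 62.00 and 74.6 CPM and 0.5004, 0.235 and 2.61 CPM, and its log2 fold change of 5.86 became 7.29 without the double-positive library. It too met the filter on low counts only with its member sums.

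Antimicrobial and antiprotease genes included abundant transcripts of members. Of 29 listed genes in the files, 21 passed the filter on low counts and 8 did not. Of the 21 tested, 16 were called higher and 1 lower, beside 7.22% and 4.46% of all genes tested. Their median log2 fold change was 2.31. Sparse genes could pass the filter through the member sums alone, which would raise the count and the median. LCN2, an iron-sequestering lipocalin, had 2485, 2293 and 2342 CPM in members and 347, 296 and 320.4 CPM in other cells (log2 fold change 2.88, edgeR adjusted p = 1.12e-32). WFDC2, a whey acidic protein, had 2084, 1606 and 1825 CPM and 288, 235 and 263 CPM, and the antiprotease SLPI 1834, 1461 and 1682 CPM and 367, 313 and 314 CPM. The 3 libraries were close to each other within each class for these genes. The complement genes C3 and CFB had log2 fold changes of 2.64 and 2.48. RNASE7, an antimicrobial ribonuclease of skin, was called lower, at 9.55, 8.70 and 5.76 CPM and 17.00, 13.8 and 11.8 CPM, a call lost with the top 20% of cells and with the thinned score. Over single cells the list had a median of 51.9, 29.8 and 44.9 UMIs per 10000 in members and 7.34, 6.27 and 7.34 in other cells.

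Surface and protease families were higher in part. Over all genes tested, 7.22% were called higher. The filter on low counts passed 4 of 8 CEACAM genes and 5 of 11 kallikreins, and sparse genes could pass it through the member sums alone. Of the 4 CEACAM genes tested, 3 were called higher. CEACAM6 had 422, 366 and 454 CPM in members and 40.3, 54.1 and 35.9 CPM in other cells, and may share reads with CEACAM5 of the score. Of 5 kallikreins, proteases that loosen contacts between shed squamous cells, 4 were called higher, KLK10 with a log2 fold change of 1.41 and KLK11 of 1.68. Of 12 clade B serpins, 6 were called higher. SERPINB3, the squamous cell carcinoma antigen, had 473, 396 and 315 CPM and 55.7, 51.01 and 41.5 CPM, with a near-identical copy in SERPINB4. Of 13 Ly6 and uPAR domain genes, 5 were called higher. Among them PSCA, a surface antigen, had 33.99, 36.2 and 24.2 CPM and 0.558, 0.212 and 0.222 CPM, with 63.1% of the single-positive member UMIs in 1 cell. PSCA met the filter on low counts only with its member sums, so its call was partly set by the filter. SLC6A14, an amino acid transporter outside these lists, had 39.6, 24.95 and 49.9 CPM and 0.866, 0.470 and 0.666 CPM.

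Of 19 transcription factors of epithelial differentiation tested, 7 were called higher and 0 lower, beside 7.22% and 4.46% of all genes tested. ELF3, an epithelial ETS factor, had 141, 152 and 168 CPM in members and 45.2, 39.6 and 47.7 CPM in other cells (log2 fold change 1.79, edgeR adjusted p = 1.30e-25). ZNF750, which promotes epidermal differentiation, had 11.4, 12.9 and 9.98 CPM and 2.46, 1.36 and 1.83 CPM. Of 24 retinoid and xenobiotic genes, 9 were called higher and 4 lower, beside 7.22% and 4.46% of all genes tested. CYP1A1, a target of the aryl hydrocarbon receptor, had 80.3, 45.2 and 43.8 CPM and 11.1, 5.64 and 8.38 CPM. ALDH3A1, an aldehyde dehydrogenase, was called lower, at 179, 253 and 249 CPM and 326, 431 and 493 CPM.

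**Figure D5:**
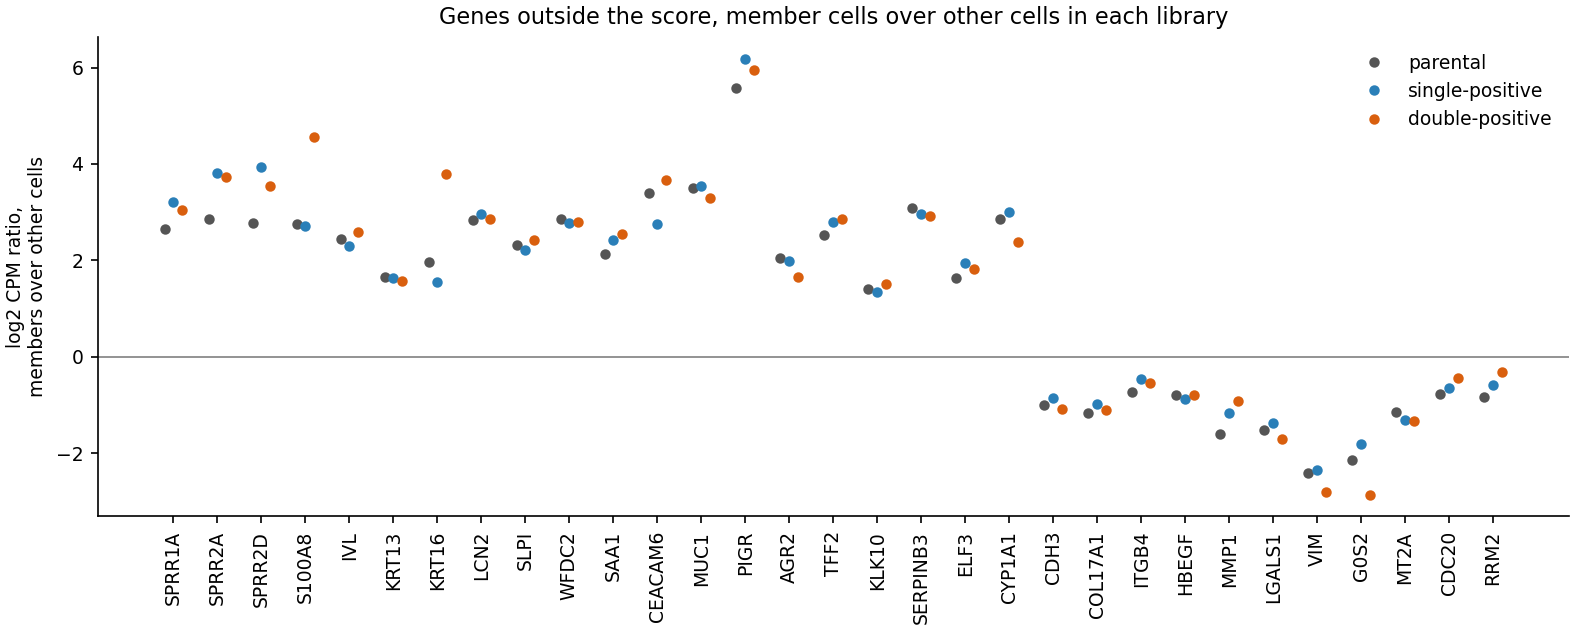
Log2 ratio of CPM in member cells over other cells for 31 genes outside the score, with 1 point per library. From SPRR1A to CYP1A1 all points lie above 0, and from CDH3 to RRM2 all lie below 0. The call required the same direction in each library.

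No basal or progenitor gene was called higher. Of 19 tested, 0 were called higher and 7 lower, beside 7.22% and 4.46% of all genes tested. Their median log2 fold change was -0.49. COL17A1, a hemidesmosome collagen, had 92.3, 119.7 and 108 CPM in members and 207, 235 and 232 CPM in other cells (log2 fold change -1.09, edgeR adjusted p = 1.55e-19). CDH3, P-cadherin, had 39.5, 46.5 and 46.8 CPM and 78.99, 84.4 and 99.3 CPM. The squamous lineage factor TP63 had a log2 fold change of -0.49 and KRT5 of -0.31, both short of 1.5-fold.

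Of 25 mesenchymal and migration genes tested, 12 were called lower in members and 3 higher, beside 4.46% and 7.22% of all genes tested. Their median log2 fold change was -0.60. VIM, vimentin, had 8.20, 17.5 and 5.48 CPM in members and 43.9, 88.7 and 38.9 CPM in other cells (log2 fold change -2.47, edgeR adjusted p = 4.32e-24). It was highest in the single-positive library in both classes. LGALS1, galectin-1, had 221, 271 and 189 CPM and 632, 698 and 614 CPM. S100A4 and fibronectin (FN1) were called higher, with log2 fold changes of 1.91 and 0.75.

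Other genes among the lowest in members included MT2A, a metallothionein, with 3920.0, 3944 and 3118 CPM in members and 8682, 9749.9 and 7882 CPM in other cells. G0S2, an inhibitor of lipid breakdown, had 25.96, 26.3 and 10.4 CPM and 115, 91.8 and 75.7 CPM. PTHLH, a hormone related to parathyroid hormone, had 78.1, 79.4 and 76.03 CPM and 183, 199 and 209 CPM. Of 26 cytokine and NF-κB genes tested, 3 were called higher and 8 lower, beside 7.22% and 4.46% of all genes tested. The cytokine IL1A had 133, 156 and 129 CPM and 271, 269.7 and 259 CPM, and HBEGF, a ligand of the EGF receptor on another list, 237, 236 and 252 CPM and 409, 434 and 437 CPM. In each of these genes the members lay below the other cells in all 3 libraries, as the call required.

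Proliferation genes were lower in part. Of 42 S phase genes 0 were called higher and 6 lower, and of 54 G2M genes 0 higher and 7 lower, with medians of -0.41 and -0.40. Over all genes tested, 7.22% were called higher and 4.46% lower. AURKB, a mitotic kinase, had 22.4, 30.1 and 29.8 CPM in members and 42.96, 50.6 and 41.9 CPM in other cells. G1 calls made up 68.2, 41.7 and 57.3% of members and 44.9, 41.3 and 45.8% of other cells. G2M calls made up 25.7, 50.6 and 31.6% of members and 41.02, 41.8 and 40.8% of other cells. They were thus more frequent in members of the single-positive library alone. At 15000 UMIs or more, G1 calls made up 60.4% of single-positive members and 40.8% of the others. G2M calls at that depth made up 29.9% and 40.4%. Free RNA enters these phase calls too, and its part was not tested.

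None of 13 mitochondrially encoded genes, 23 glycolysis genes or 23 endoplasmic reticulum stress genes passed the edgeR call, with medians of -0.06, -0.27 and -0.01. Summed, the glycolysis list was still lower in members of each library. It stood at 18834, 18491 and 17293 CPM in members and 21403.5, 21574 and 20829 CPM in other cells. Of 38 interferon-stimulated genes CXCL11 alone was called, lower, and lost its call among G1 cells, with DESeq2 and without the library block. These counts do not show that levels were equal.

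Markers of other cell types were sparse in both classes, but several were called. Fibroblast markers summed to 6.26, 4.54 and 5.90 CPM in members and 5.04, 4.30 and 5.13 CPM in other cells, with 1 to 4 of the 9 at 0. Endothelial markers summed to 0.845, 0.504 and 0.562 CPM and 0.423, 0.353 and 0.241 CPM. Immune markers reached 56.9, 43.98 and 40.9 CPM and 42.2, 30.9 and 36.1 CPM, mostly from CD68, a lysosomal protein. Of 4 immune markers tested, 3 were called higher, beside 7.22% of all genes tested. CD14, a lipopolysaccharide receptor, had 8.29, 4.41 and 6.46 CPM in members and 4.18, 3.17 and 4.09 CPM in other cells. CD79A, of the B cell receptor, had 2.11, 0.882 and 0.422 CPM and 0.269, 0.141 and 0.0555 CPM, and LYZ, lysozyme, 0.676, 0.630 and 0.422 CPM and 0.0192, 0.0941 and 0.0185 CPM. The 1 endothelial marker tested, VWF, was called higher (log2 fold change 2.11, edgeR adjusted p = 0.00231). VWF, CD79A and LYZ met the filter on low counts through the member sums alone, so their calls were partly set by the filter. Of 4 fibroblast markers tested, COL1A1 was called higher (log2 fold change 0.61, edgeR adjusted p = 0.0220) and FAP lower (log2 fold change -1.38, edgeR adjusted p = 0.0179). Of 14 acinar and endocrine markers, 12 or 13 were at 0 in members. The exception was PRSS1, trypsinogen, with 103, 24.6 and 22.3 CPM in members and 6.22, 0.706 and 1.81 CPM in other cells, which shares sequence with PRSS2. In members 1 cell held 17.0, 27.2 and 42.1% of the PRSS1 UMIs. The acinar and endocrine list, nearly all PRSS1 in members, summed to 485 CPM in parental members under 15000 UMIs and 81.3 CPM in deeper ones. The part of other cells in these values was not tested.

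Some gene groups outside the score were higher at each step along it, and others were not. From a score of 0, through other cells above 0, to members under 5, of 5 to 10, of 10 to 30 and of 30 or more, antimicrobial and antiprotease genes of parental cells summed to 812, 1725, 4445, 5264, 8984 and 13290.2 CPM. Cornified envelope genes went from 2080.2, 1728 and 2118 CPM in the lowest range to 6453, 9052 and 13337 CPM in the highest. Both lists were higher at each step in all 3 libraries. The cornified list holds SPRR2A and SPRR2D, which may share reads with SPRR2E and SPRR2F of the score. The part of shared reads was not tested. The highest range held only 38, 19 and 30 cells. In double-positive members 1 cell held 64.8% of the UMIs of S100A7, also on this list. Secretory and classical-type genes went from 396 to 1567 CPM in parental and from 378 to 1475 CPM in single-positive cells. In double-positive cells they stood at 947 CPM in members of 10 to 30 and 788 CPM in those of 30 or more. CEACAM genes of double-positive cells likewise stood at 879.5 and 511 CPM in these ranges, so both lists were lower in the last step there. Basal genes went from 20606, 19201 and 20948 CPM to 10723, 11098 and 13408 CPM.

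Between libraries, members were compared by CPM ratios over 7778 genes averaging 10 CPM or more, with no test, and the 3 comparisons share libraries. In double-positive over single-positive members, 12 genes (0.154%) were at least 2-fold higher and 16 (0.206%) at least 2-fold lower. MMP7, an epithelial metalloproteinase, had 71.5 CPM in double-positive and 33.3 CPM in single-positive members, and 8.68 and 9.22 CPM in other cells. Its log2 ratio was 1.10 in members (0.89 to 1.32) and -0.09 in other cells (-0.28 to 0.11). AKR1C2, a reductase with near-identical copies, was lower, at 28.5 against 70.8 CPM in members, beside 74.4 and 71.3 CPM in other cells.

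In single-positive over parental members, 19 genes (0.244%) were at least 2-fold higher and 9 (0.116%) at least 2-fold lower. Linker histone HIST1H1E had 235 CPM in single-positive and 92.3 CPM in parental members, and 249 and 156 CPM in other cells. Among cells of 15000 UMIs or more, chosen again, 7 genes were 2-fold higher in place of 19. PRSS1 was lower in single-positive members, at 24.6 against 103 CPM, and likewise in other cells, at 0.706 against 6.22 CPM. Of its member UMIs 1 cell held 27.2% in the single-positive and 17.0% in the parental library.

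In double-positive over parental members, 24 genes (0.309%) were at least 2-fold higher and 12 (0.154%) at least 2-fold lower. All 13 mitochondrially encoded genes were among the 24. The median mitochondrial share was 2.09% in double-positive and 0.742% in parental members, and 2.07% and 0.996% in other cells. SPRR2A had 665 CPM in double-positive and 331 CPM in parental members, a log2 ratio of 1.01 (0.95 to 1.07), beside 0.14 in other cells (0.06 to 0.22). KRT23, counted above among the stratified keratins called higher, had 213 against 97.8 CPM in members and 83.3 against 48.4 CPM in other cells. LYNX1 was lower, at 62.7 against 146 CPM in members.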

How the data were processed

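Single-cell libraries were aligned to GRCh38 with Cell Ranger 4.0.0, and Seurat 4.0.6 was also used, per the submitters' processing notes. The deposited matrices hold raw UMI counts per gene and barcode, with 737280 barcodes per library. A barcode counted as a cell with 6500 UMIs or more, 500 genes or more and no more than 20% mitochondrial UMIs. Doublets were not removed. Summed counts were fitted with edgeR 4.0.16 in R 4.3.3 (TMM scaling, its default filter on low counts, Benjamini-Hochberg adjustment), a script tested on simulated data. Cells were scored and phased with Python 3.11.15, scanpy 1.11.5 and scipy 1.17.1. Gene positions come from GENCODE 29 by gene ID (33132 of 33694 features). Genes named are the 12 highest and 12 lowest called genes of at least 30 CPM, up to 5 called genes of each list by fold change, the 5 highest and 5 lowest ratios between libraries, and genes picked for their role after their values were seen. The members and lists were chosen with earlier results of these data known. The 17 alternatives covered how cells were chosen, depth, phase, scaling, filter, tool (DESeq2 1.42.0), block and leaving out each library. 1 gene that the rule names is not reported here.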

Additional observations from a re-analysis of the deposited data

Results flagged for a closer look

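Near-empty barcodes, which no comparison used, held UMIs of the 8 score genes at 2.56, 2.99 and 2.35 per 10000 UMIs in the parental, single-positive and double-positive library.

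Some genes differed between libraries in opposite directions in member and other cells, and these differences were not tested. For double-positive over single-positive cells, the log2 ratio in members and in other cells was 1.69 and -0.40 for IFIT2, 1.08 and -0.31 for CXCL10, 0.40 and -1.26 for LYPD2, and 0.59 and -0.36 for PI3. For single-positive over parental cells it was -1.50 and 0.28 for IFIT2, 0.22 and -1.004 for SPRR2E, -0.69 and 0.49 for LYNX1, and -0.13 and 0.45 for CEACAM5. For double-positive over parental cells it was 3.95 and -1.23 for S100A7, and 0.76 and -0.32 for PI3. Single cells held much of some of these sums. In members, 1 cell held 26.5% of the IFIT2 UMIs of double-positive, 35.8% of single-positive and 27.2% of parental cells, 39.4% of the CXCL10 UMIs of double-positive and 44.3% of single-positive cells, and 64.8% of the S100A7 UMIs of double-positive and 30.8% of parental cells. The score genes chose the members, so their levels in other cells are limited by the cut.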

How the results depend on the processing

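Genes called higher numbered 771 (DESeq2) to 1087 (top 10% of cells) over the 17 alternatives and genes called lower 437 to 794, and no call turned direction. Leaving out 1 library gave 968 to 1001 higher and 530 to 644 lower. Of 174 named called genes, 125 kept the call in all 17, 10 kept it in each alternative that gave them a value, and 39 lost it in at least 1. Shares of members (parental, single-positive, double-positive) were 12.04, 9.91 and 7.53% with the top 10% and 20.8, 27.3 and 14.1% with the top 20%, as the larger choice requires. They were 13.8, 10.6 and 9.10% in cells of 20000 to 40000 UMIs, 18.1, 14.5 and 11.8% in cells of at least 15000 UMIs (added after seeing the data), and 22.8, 19.3 and 12.9% in G1 cells. The parental share was 18.3% with the thinned score and 14.4% without cells under 0.5% mitochondrial UMIs.

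Counts of 2-fold differences between libraries were unstable. In cells of 20000 to 40000 UMIs, 71 genes were higher and 71 lower for double-positive over single-positive, 56 and 36 for single-positive over parental, and 43 and 20 for double-positive over parental members. Without cells under 0.5% mitochondrial UMIs the higher counts were 22, 29 and 11, and 21 genes were lower for single-positive over parental. With the top 15% of each library, 7 were higher for double-positive over single-positive. At 15000 UMIs or more, 10 were lower for that pair and 7 higher for single-positive over parental. The cause was not tested. No paired analysis was possible because each group has 1 library and shares only the number 1. Depth limits genes of few UMIs, such as IVL and MUC5AC.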
